A study of Homo sapiens with 5 samples.

Results

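The genes described here encode feedback regulators of intracellular signalling, namely the dual-specificity phosphatases (DUSP), the suppressors of cytokine signalling (SOCS) and the Sprouty proteins (SPRY). They were chosen by symbol, as those starting with DUSP, SOCS, SPRY followed by a digit, SPRED or PIAS, without pseudogenes and antisense transcripts. Of 14812 genes with a named probe set, 34 fell under this rule. They comprise 10 of 10 typical DUSP genes, 14 of 15 atypical DUSP genes, 7 of 7 SOCS genes and 3 Sprouty genes, SPRY2, SPRY3 and SPRY4. SPRY1, DUSP13B, SPRED1, SPRED2 and SPRED3 and the 4 PIAS genes are not analysed here, since no named probe set carries them. Transcripts were measured in LNCaP, a long-established line of human prostate cancer cells that responds to androgen. Cells carried retroviral hairpins under puromycin selection, in 3 arrays a hairpin against RB1 (shRB) and in 2 arrays a scrambled control (shControl). Both groups had received 10 Gy of ionizing radiation and RNA was taken 24 h later, so every value comes from irradiated cells and none from resting cells. Whether arrays of a group stem from separate cultures is not stated in the labels, so p-values reflect array-to-array spread that may be technical.

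These families act as brakes. Typical DUSPs, also called MAP kinase phosphatases, bind ERK, JNK or p38 and remove the phosphates that activate them, and several are themselves transcribed in response to the kinase they switch off. Atypical DUSPs lack the kinase-binding domain and include enzymes with other substrates, among them RNA. Several SOCS proteins are induced by STAT factors, and members of the family shut off JAK kinases or send receptors to degradation through their SOCS box. Sprouty proteins are induced by growth factors and restrain signalling from receptor tyrosine kinases to RAS and ERK. In prostate cells such signals come from growth factor receptors, interleukins and interferons.

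In shRB cells 3 of the 34 genes were higher past the threshold, SOCS3, DUSP12 and DUSP14, and 0 were lower (limma, Benjamini-Hochberg adjusted p over all genes, threshold 0.05). Over all genes tested 0.695% were called higher and 0.378% lower. The rise of SOCS3 was seen in 1 of its 2 probe sets. None of the 3 called members passed when any shRB array was left out. In those fits 22 to 28 of all genes passed, against 159 with all arrays. Of the other 31 members none passed in the fit with all arrays. Unadjusted p-values under 0.05 were reached by 7 members, 3 higher and 4 lower in shRB, or DUSP21, DUSP16, SPRY4 and SPRY2 beside those called, against 18.1% of all genes (10.9% higher and 7.22% lower). The arrays of shRB and shControl did not overlap for 11 members, with all shRB arrays higher for 7 and all lower for 4. That is 32.4% of the members, against 36.0% of all genes (20.6% higher and 15.4% lower). The median log2 difference of the members was 0.05, against 0.02 over all genes, with 20 positive and 14 negative. In such bulk samples, fewer cells of a type and less RNA per cell cannot be told apart.

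**Figure D1:**
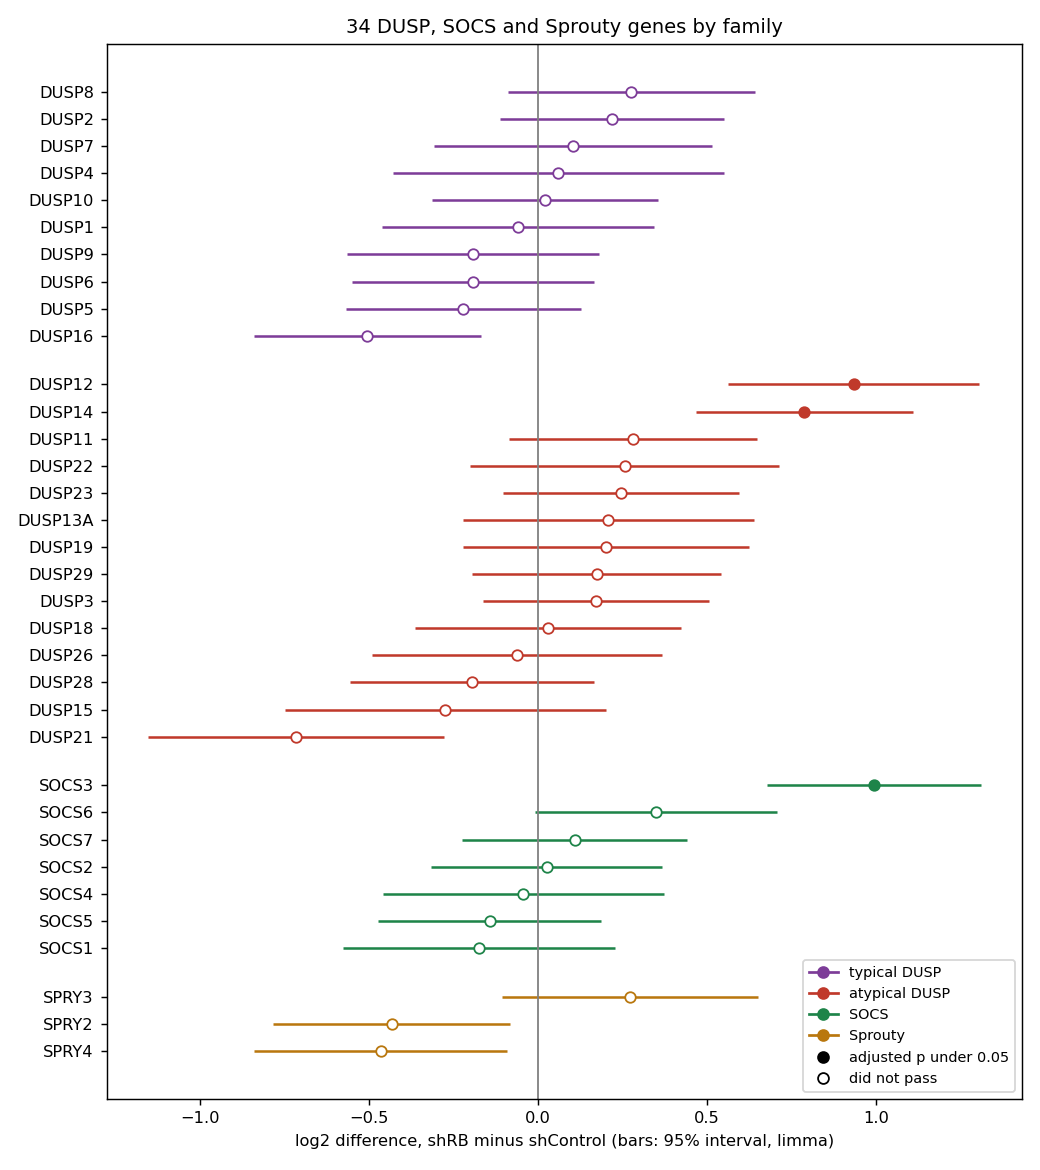
Log2 difference (shRB minus shControl) of each of the 34 genes, grouped by family, with 95% intervals from limma on 3 shRB and 2 shControl arrays. Filled points, SOCS3, DUSP12 and DUSP14, passed at an adjusted p under 0.05, and open points did not; the differences run from -0.71 (DUSP21) to 0.99 (SOCS3).

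Of the members with an unadjusted p under 0.05, 6 are shown with the 250 bases before their RefSeq transcription start, so that the proximal promoters of genes higher and lower in shRB can be set side by side. DUSP12, called higher, had no entry in the promoter set used, so it is not shown and was not searched for motifs. The stretches are from GRCh38.p14 and read 5′ to 3′ on the gene's strand. Capitals mark GC boxes (GGGCGG on either strand), the element bound by SP-family factors. SOCS3 (chr17:78360926-78361175, minus strand) and DUSP14 (chr17:37489641-37489890, plus strand) were higher in shRB. DUSP21 (chrX:44843771-44844020, plus strand), DUSP16 (chr12:12562864-12563113, minus strand), SPRY4 (chr5:142324248-142324497, minus strand) and SPRY2 (chr13:80341127-80341376, minus strand) had lower values.
SOCS3: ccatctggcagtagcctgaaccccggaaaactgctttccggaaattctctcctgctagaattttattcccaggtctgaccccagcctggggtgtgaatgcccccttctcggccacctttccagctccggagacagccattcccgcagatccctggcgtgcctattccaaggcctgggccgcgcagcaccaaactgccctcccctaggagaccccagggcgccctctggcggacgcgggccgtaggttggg
DUSP14: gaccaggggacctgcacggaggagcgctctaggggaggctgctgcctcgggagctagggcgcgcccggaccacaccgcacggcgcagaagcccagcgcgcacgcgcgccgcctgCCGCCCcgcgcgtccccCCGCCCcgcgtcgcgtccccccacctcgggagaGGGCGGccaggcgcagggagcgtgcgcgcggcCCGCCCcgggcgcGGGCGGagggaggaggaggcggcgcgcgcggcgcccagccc
DUSP21: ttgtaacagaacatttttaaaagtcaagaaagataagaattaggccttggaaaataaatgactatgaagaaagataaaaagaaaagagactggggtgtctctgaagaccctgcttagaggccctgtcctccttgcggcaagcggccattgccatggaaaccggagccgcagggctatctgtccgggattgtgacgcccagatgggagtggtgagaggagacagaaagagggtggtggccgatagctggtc
DUSP16: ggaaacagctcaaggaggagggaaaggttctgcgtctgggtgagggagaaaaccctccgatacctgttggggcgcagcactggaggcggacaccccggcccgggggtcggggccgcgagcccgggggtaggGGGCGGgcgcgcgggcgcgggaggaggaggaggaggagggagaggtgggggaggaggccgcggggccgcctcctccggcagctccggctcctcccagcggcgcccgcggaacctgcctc
SPRY4: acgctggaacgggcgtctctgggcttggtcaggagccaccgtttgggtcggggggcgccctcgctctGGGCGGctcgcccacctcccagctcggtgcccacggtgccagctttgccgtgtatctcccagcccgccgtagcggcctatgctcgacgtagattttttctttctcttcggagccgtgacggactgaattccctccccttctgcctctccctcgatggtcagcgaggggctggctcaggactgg
SPRY2: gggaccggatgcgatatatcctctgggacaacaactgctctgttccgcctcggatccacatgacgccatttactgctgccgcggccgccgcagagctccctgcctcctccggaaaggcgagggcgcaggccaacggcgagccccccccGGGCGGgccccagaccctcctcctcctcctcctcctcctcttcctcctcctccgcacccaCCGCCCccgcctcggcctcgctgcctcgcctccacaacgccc

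The DUSP14 stretch is 82.8% G and C and holds 5 GC boxes, while that of SOCS3 is 62.8% G and C and holds 0. Among those with lower values, DUSP21 had 48.8% G and C and 0 GC boxes, DUSP16 had 1 (74.8% G and C), SPRY4 had 1 (65.6%) and SPRY2 had 2 (70.4%). RefSeq windows of 300 bases (250 before the start and 50 after it), 1 per gene, matched 26 of the 34 members. They were searched on both strands for elements of the factors these pathways feed. Elements near another start of a gene would be missed. A GC box lay in 19 of the 26 (73.1%), against 60.5% of the 10736 windows of tested genes. The E2F site, bound by the factors that RB1 restrains and searched as TTTCGCGC, TTTGGCGC, TTTCCCGC and TTTGCCGC, lay in 0 of the 26 windows, against 4.50% over all tested genes. The STAT site TTCNNNGAA lay in 1 (DUSP3), against 6.72%, and the AP-1 site TGANTCA in 0, against 5.88%. The cAMP response element TGACGTCA lay in 2 of the 26 (7.69%), DUSP1 and, in 2 copies, DUSP8, against 2.63% over all tested genes. The ETS site CCGGAAG lay in 1 (DUSP15, against 15.0%), the TATA box TATAAA in 1 (DUSP1, against 8.49%) and the CArG box, the element of serum response factor, in 0 (against 1.23%). None of these motifs contains another as spelled here. These are letter matches in short windows and carry no count of bound factors.

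SOCS3 binds cytokine receptors of the gp130 type and their JAK kinases and is the classical brake on STAT3. Its probe set 17117736 had log2 intensities of 6.09, 6.14 and 6.05 in shRB replicates 1 to 3, against 5.04 and 5.16 in shControl replicates 1 and 2. All shRB arrays lay above both shControl arrays, and the gap between the groups exceeded the range within either. Group means of 6.09 ± 0.04 in shRB (SD, n = 3) against 5.10 ± 0.08 in shControl (SD, n = 2) gave a log2 difference of 0.99 (SE 0.14, 95% interval 0.68 to 1.31, limma adjusted p = 0.0101). That is 1.99-fold higher on the deposited scale. The lowest deposited value of every array is 16, a log2 intensity of 4, which looks like an added constant, and with it taken off the ratio of group means was 2.86-fold.

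A further SOCS3 probe set, 16849400, did not show this rise. It read 5.34, 5.03 and 5.03 in shRB and 4.96 and 5.91 in shControl, so the groups overlapped and shControl replicate 2 was the highest array. Its log2 difference was -0.30 (95% interval -0.83 to 0.23, adjusted p = 0.547 among all named probe sets). By the rule the probe set that is brighter over all arrays stands for the gene. Probe set 17117736 was brighter than 16849400 in shRB (means 6.09 and 5.13) but dimmer in shControl (5.10 and 5.43). Its choice therefore rested on the shRB arrays, the group in which it is high, and lends the call no weight. With the mean of both probe sets SOCS3 did not pass (log2 difference 0.35, limma adjusted p = 0.328). The SOCS3 call therefore holds for 1 of its 2 probe sets. DUSP5 and SPRY3 also had 2 probe sets. For DUSP5 they differed in sign (-0.22 and 0.13) and for SPRY3 they did not (0.27 and 0.34), and neither gene passed with either. The SPRY3 probe set not used, 17116681, had all shRB arrays higher (limma unadjusted p = 0.0468), whereas the groups overlapped in the one used.

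**Figure D2:**
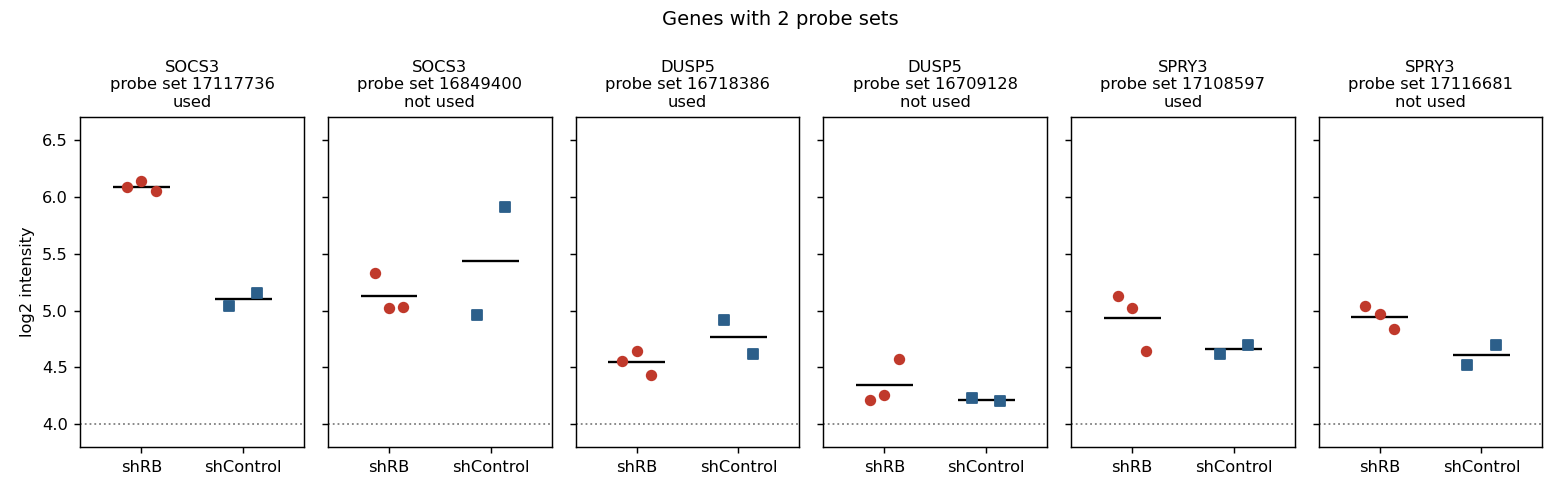
Log2 intensity of each array for the 3 genes with 2 probe sets, shRB (circles) left of shControl (squares), with horizontal lines at group means and a dotted line at 4, the floor of the deposited values. In the SOCS3 probe set used, the shRB arrays stand near 6.1 and the shControl arrays near 5.1, whereas in the other shControl replicate 2 reaches 5.91 and the groups overlap.

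The remaining SOCS genes gave no call. SOCS6, which binds the insulin receptor and KIT, stood at 6.65, 6.75 and 6.42 in shRB, against 6.14 and 6.38 in shControl. All shRB arrays were higher, the closest pair by little, and the log2 difference was 0.35 (95% interval -0.01 to 0.71, adjusted p = 0.283). SOCS1, an inhibitor of JAK kinases downstream of interferons, read 4.50, 4.80 and 4.45 in shRB and 4.52 and 5.00 in shControl, all close to the floor and overlapping (log2 difference -0.17, adjusted p = 0.657). SOCS2, which limits growth hormone signalling, differed by 0.03 (interval -0.31 to 0.37), with both group means within 1 log2 unit of the floor. SOCS4 (-0.04), SOCS5 (-0.14) and SOCS7 (0.11) had overlapping arrays as well. Over the 7 SOCS genes the median difference was 0.03, with 4 positive and 3 negative.

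Among atypical DUSPs, DUSP12 and DUSP14 were higher in shRB. DUSP12 carries a zinc-binding domain, and its yeast counterpart works in the assembly of the large ribosomal subunit. Its log2 intensities were 7.15, 6.77 and 6.98 in shRB, against 6.19 and 5.88 in shControl. The lowest shRB array lay above the highest shControl array. With means of 6.97 ± 0.19 in shRB (SD, n = 3) against 6.03 ± 0.22 in shControl (SD, n = 2), the log2 difference was 0.93 (SE 0.17, 95% interval 0.56 to 1.31, limma adjusted p = 0.0296), or 1.91-fold as deposited and 2.20-fold with the constant taken off.

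DUSP14, a small phosphatase known in T cells for restraining antigen receptor signalling, read 7.26, 7.31 and 7.38 in shRB, against 6.60 and 6.46 in shControl. Both groups were tight and well apart. Means of 7.32 ± 0.06 in shRB (SD, n = 3) against 6.53 ± 0.10 in shControl (SD, n = 2) gave a log2 difference of 0.79 (SE 0.15, 95% interval 0.47 to 1.11, limma adjusted p = 0.0315), or 1.73-fold as deposited and 1.88-fold with the constant taken off.

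**Figure D3:**
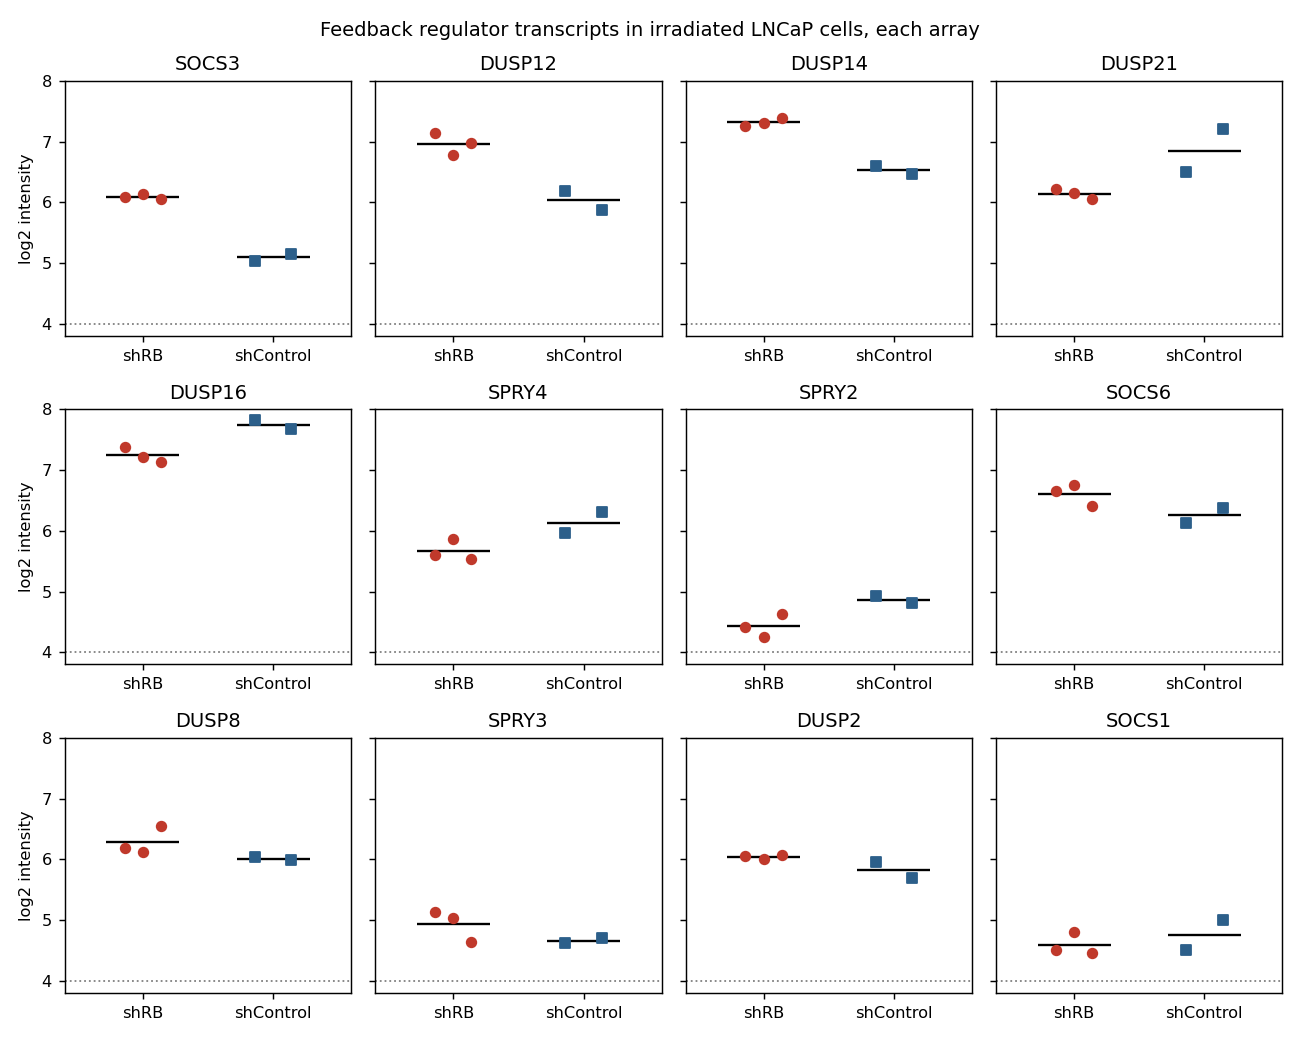
Log2 intensity of every array for 12 of the 14 members given array by array (DUSP1 and DUSP4 are not drawn), in order of p from SOCS3 to SOCS1, shRB (circles) left of shControl (squares). Horizontal lines are group means and the dotted line at 4 is the floor of the deposited values; SOCS3, DUSP12 and DUSP14 are separated by 0.79 to 0.99 between means, while SPRY3 and SOCS1 overlap.

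Apart from the further SOCS3 probe set, the direction of these 3 genes was kept in every alternative run, but not their calls. With any 1 shRB array left out none of the 3 passed, with log2 differences of 0.97 to 1.01 for SOCS3 (adjusted p up to 0.0979), 0.84 to 1.03 for DUSP12 (up to 0.198) and 0.76 to 0.82 for DUSP14 (up to 0.197). Without shControl replicate 1 all 3 passed, and without shControl replicate 2 SOCS3 alone passed, with DUSP12 at 0.78 (adjusted p = 0.0713) and DUSP14 at 0.72 (adjusted p = 0.0631). With 16 subtracted and 4 added before the logarithm, none passed, and the log2 differences were 1.34 for SOCS3 (adjusted p = 0.0886), 1.08 for DUSP12 and 0.88 for DUSP14 (both adjusted p = 0.143). None passed with the replicate number as a block either (limma adjusted p = 0.0991 for SOCS3, 0.1305 for DUSP12 and 0.2075 for DUSP14). Calls were lost over all genes too. Against 159 as reported, 22 to 28 genes passed with a shRB array left out, 13 with 16 subtracted and 4 added, and 24 with the block. Array weights left SOCS3 alone past the threshold, with limma adjusted p = 0.0511 for DUSP12 and 0.0546 for DUSP14.

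**Figure D4:**
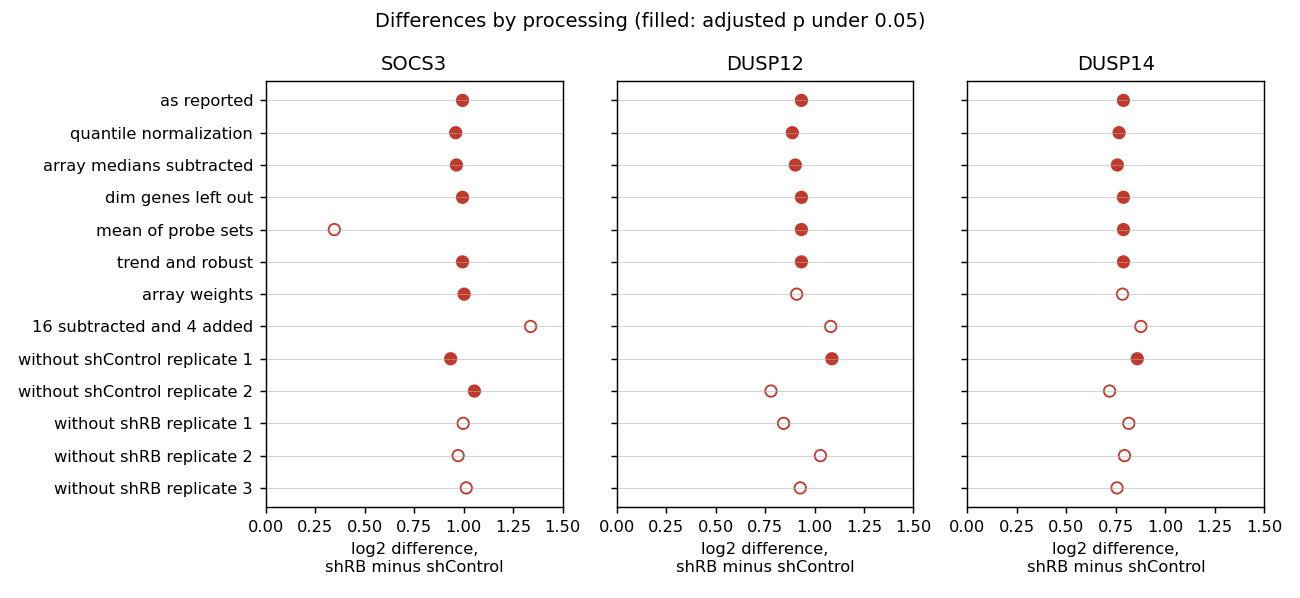
Log2 difference (shRB minus shControl) of SOCS3, DUSP12 and DUSP14 as reported and under alternative processing and with each array left out; filled points have an adjusted p under 0.05. Every point lies above 0, the lowest being SOCS3 with the mean of its probe sets (0.35), and no gene is filled where a shRB array is left out.

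DUSP21, an atypical phosphatase known mainly from testis, had the lowest difference of the members. It read 6.22, 6.15 and 6.05 in shRB, against 6.50 and 7.21 in shControl. All shRB arrays were lower, but the shControl arrays differed from each other by as much as the groups did. The log2 difference of -0.71 (SE 0.20, 95% interval -1.15 to -0.28) did not pass (adjusted p = 0.106). It was -1.07 without shControl replicate 1 (adjusted p = 0.0188) and -0.36 without shControl replicate 2 (adjusted p = 0.267). The 11 other atypical DUSPs did not pass either. DUSP11, an RNA phosphatase, stood at 0.28 and DUSP23 at 0.25, with 95% intervals of -0.08 to 0.65 and -0.10 to 0.60. DUSP22, a regulator of JNK signalling, stood at 0.26 and DUSP3, which can dephosphorylate ERK and JNK, at 0.17. DUSP15 (-0.27), DUSP28 (-0.19) and DUSP26 (-0.06) were on the other side of 0. The muscle-associated DUSP13A (0.21) and DUSP29 (0.17), as well as DUSP19 (0.20) and DUSP26, had both group means within 1 log2 unit of the floor. DUSP18 stood at 0.03. Of the 14 atypical DUSPs 10 differences were positive and 4 negative, with a median of 0.19.

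No typical DUSP passed, and the 10 genes split evenly, 5 above and 5 below 0, around a median of -0.02. DUSP16, a phosphatase with preference for JNK, had the smallest p of them. Its log2 intensities were 7.39, 7.21 and 7.14 in shRB, against 7.83 and 7.67 in shControl. All shRB arrays were lower, with means of 7.25 ± 0.13 in shRB (SD, n = 3) against 7.75 ± 0.11 in shControl (SD, n = 2). The log2 difference of -0.50 (SE 0.15, 95% interval -0.84 to -0.17) did not pass over all genes (adjusted p = 0.124). DUSP8, which acts on JNK and p38, read 6.19, 6.13 and 6.55 in shRB and 6.04 and 5.99 in shControl, and differed by 0.28 (adjusted p = 0.407). DUSP2, an inducible nuclear phosphatase of ERK and p38, read 6.05, 6.01 and 6.07 in shRB and 5.96 and 5.69 in shControl, and differed by 0.22 (adjusted p = 0.476). Both had all shRB arrays higher, by margins smaller than the spread within a group.

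The stress-inducible nuclear phosphatase DUSP1 read 6.52, 6.31 and 6.44 in shRB, between the 6.77 and 6.20 of shControl replicates 1 and 2. Its log2 difference was -0.06 (95% interval -0.46 to 0.34). DUSP4, the nuclear relative of DUSP1, read 5.39, 5.27 and 5.29 in shRB, again between 5.70 and 4.81 in shControl, and differed by 0.06 (interval -0.43 to 0.55). DUSP10, a JNK and p38 phosphatase, differed by 0.02 (interval -0.31 to 0.35). The phosphatases most selective for ERK were DUSP6 (-0.19, interval -0.55 to 0.17), DUSP7 (0.10), DUSP9 (-0.19) and the nuclear DUSP5 (-0.22). DUSP5, DUSP6 and DUSP9 had both group means within 1 log2 unit of the floor, where an added constant compresses differences.

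Over the 34 members the range of the 3 shRB arrays was smaller than the gap between the 2 shControl arrays in 20 (58.8%), against 44.1% of all genes. The largest shRB range was 0.69 (DUSP26) and the largest shControl gap 0.89 (DUSP4). Both group means lay within 1 log2 unit of the floor for 11 of the 34 members.

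Of the 3 Sprouty genes, SPRY4 and SPRY2 had lower values in shRB without passing, and SPRY3 a higher one. SPRY4 read 5.61, 5.87 and 5.53 in shRB, against 5.96 and 6.31 in shControl. All shRB arrays were lower, but the nearest arrays of the groups lay close together. The log2 difference was -0.46 (SE 0.17, 95% interval -0.84 to -0.09, adjusted p = 0.189). SPRY2, a brake on RAS and ERK downstream of growth factor receptors, read 4.41, 4.26 and 4.63 in shRB, against 4.92 and 4.81 in shControl. Its difference was -0.43 (SE 0.16, interval -0.78 to -0.08, adjusted p = 0.192), and with the constant taken off the shRB mean was 0.435 of the shControl mean, measured within 1 log2 unit of the floor in both groups. SPRY3 read 5.13, 5.03 and 4.64 in shRB and 4.62 and 4.70 in shControl, overlapping (0.27, adjusted p = 0.438). Both its group means also lay within 1 log2 unit of the floor.

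The pathways these regulators act on were examined through 8 lists, of which 156 genes were measured of 234 listed. Of these 1 was called higher and 1 lower in shRB (1.28%, against 1.07% of all genes), both from the list of receptor tyrosine kinase to RAF genes (30 measured of 44 listed). An unadjusted p under 0.05 was reached by 32 of the 156 (20.5%), 20 higher and 12 lower, against 18.1% of all genes. Those 32 lay in the ERK-responsive list (10), the MAP kinase list (7), the receptor to RAF list (6), the JAK and STAT list (4), the SUMO list (4) and the SOCS box list (1). IGF1R, the receptor of insulin-like growth factors, fell by 1.05 on the log2 scale (6.22, 6.45 and 6.19 in shRB, against 7.43 and 7.24 in shControl, limma adjusted p = 0.0112). RASA2, a GTPase-activating protein that switches RAS off, rose by 0.74 (5.53, 5.31 and 5.52 in shRB, against 4.74 and 4.69 in shControl, limma adjusted p = 0.0452). With any 1 shRB array left out neither passed (adjusted p up to 0.132 and 0.229), nor with 16 subtracted and 4 added (both adjusted p = 0.115) or with the replicate number as a block (adjusted p = 0.131 and 0.234). Those fits called 13 to 28 of all genes, against 159 as reported. RASA2 also did not pass without shControl replicate 2 (adjusted p = 0.0718), after quantile normalization (adjusted p = 0.0659) or with array weights (adjusted p = 0.0906).

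Of the ERK-responsive list (33 measured of 43) 0 passed, the median was -0.07, and 14 genes were positive and 19 negative. An unadjusted p under 0.05 was reached by 10 of the 33 (30.3%), 3 higher and 7 lower, against 18.1% of all genes (10.9% higher and 7.22% lower). The list also holds transcription factors such as SRF, CIC and ERF, so its counts do not measure ERK output. CIC (-0.49) and ERF are among the 7 lower. The smallest p-values belonged to the sphingosine kinase SPHK1 (-0.65, adjusted p = 0.0714), the ETS repressor ERF (-0.57, adjusted p = 0.0975) and the immediate early gene IER3 (0.66, adjusted p = 0.118), and IER3 stood at 0.10 with the mean of its probe sets. SPHK1 passed with dim genes left out (adjusted p = 0.0319) and with the intensity trend (0.0449), and ERF with dim genes left out (adjusted p = 0.0489) and without shControl replicate 1 (0.0493). Of the MAP kinases and their upstream kinases (38 of 45) none passed, 26 were positive and 12 negative, and the median was 0.07. The kinases MAP3K21 (0.53, adjusted p = 0.12), MAP3K4 (0.54, adjusted p = 0.123) and MAP3K12 (0.62, adjusted p = 0.126) had the smallest p. Among 3 measured of 14 other MAP kinase phosphatases, the pseudophosphatases STYX (0.13), STYXL1 (-0.05) and STYXL2 (-0.10) did not pass.

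Upstream of the SOCS genes, 21 of 40 JAK, STAT and cytokine receptor genes were measured and 0 passed, the median was 0.15, and 13 were positive and 8 negative. The interleukin receptor IL4R (-0.54) and the kinase JAK2 (0.59) each had an adjusted p of 0.0958, and the erythropoietin receptor EPOR stood at 0.40 (adjusted p = 0.248). JAK2 passed with dim genes left out (adjusted p = 0.0473), and EPOR ranged over 0.16 to 0.64 with an array left out. Of 13 measured STAT-responsive genes of 14 listed none passed and 0 had an unadjusted p under 0.05, against 18.1% of all genes, with a median of 0.12. Among them ICAM1, an adhesion molecule, stood at -0.29, the kinase PIM1 at 0.33 (0.086 to 0.58 with an array left out) and IRF9, an interferon response factor, at 0.26. CISH, the close relative of the SOCS genes outside the symbol rule, stood at 0.16 (interval -0.27 to 0.58). Of the SOCS box ligase subunits (4 of 10), ARIH2 (0.32, adjusted p = 0.262), RNF7 (0.20) and CUL2 (-0.02) did not pass, and ARIH2 stood at 0.032 with the mean of its probe sets (adjusted p = 0.941). For SUMO pathway genes (14 of 24), the field of the unmeasured PIAS ligases, none passed. The SUMO-targeted ligase RNF111 (0.64, adjusted p = 0.095), the protease SENP7 (0.43) and SUMO4 (0.38) had the smallest p, and the list's median was 0.04. RNF111 passed with dim genes left out (adjusted p = 0.0462) and without shControl replicate 2 (0.86, adjusted p = 0.0378), and stood at 0.41 without shControl replicate 1.

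**Figure D5:**
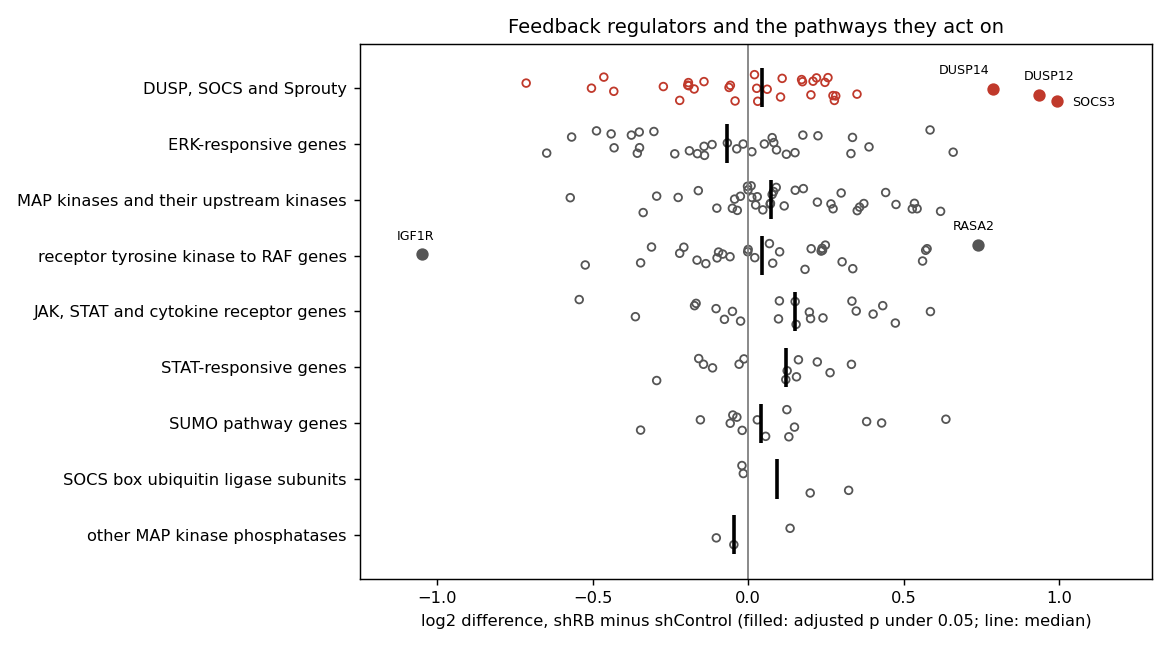
Log2 difference (shRB minus shControl) of each measured gene in the feedback regulators (top row) and in 8 lists of genes in the pathways they act on, with vertical lines at list medians. Filled points passed at an adjusted p under 0.05, 3 among the regulators and IGF1R and RASA2 among the lists; the medians lie between -0.07 and 0.15.

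RB1, the target of the hairpin, read 5.16, 5.28 and 5.20 in shRB, against 5.81 and 5.70 in shControl, lower in every shRB array (log2 difference -0.54, limma adjusted p = 0.0967). The prostate identity of the cells could be read from KLK3, which encodes prostate-specific antigen (log2 intensity 10.1 in shRB and in shControl), and FOLH1, prostate-specific membrane antigen (9.67 in shRB and 9.54 in shControl). Of the 6 luminal markers measured of 12 listed none passed, and their summed intensity was 2966 to 3060 in shRB and 2951 to 3206 in shControl. None of the 4 basal (of 8), 9 neuroendocrine (of 11), 3 fibroblast (of 9) or 6 blood and endothelial (of 11) markers measured passed. Their summed intensities ranged over 133 to 161, 228 to 241, 70.3 to 73.6 and 276 to 288 in shRB, and over 129 to 137, 196 to 231, 66.2 to 73.2 and 236 to 316 in shControl. These sums include the floor of 16 for each gene. Of the neuroendocrine markers 6 differences were positive and 3 negative, and 8 of the 9 had both group means within 1 log2 unit of the floor. An unadjusted p under 0.05 was reached by 2 of the 9 (22.2%, against 18.1% of all genes). These were NTS (0.72, limma adjusted p = 0.0552) and GRP (0.595, limma adjusted p = 0.0935), both higher in every shRB array. Other marker lists held such genes too, in both directions. Of the 4 basal markers 2 had an unadjusted p under 0.05, DST (0.53, limma adjusted p = 0.171) and KRT15 (-0.40, limma adjusted p = 0.207). Of the 6 blood and endothelial markers 2 did, EMCN (0.56, limma adjusted p = 0.106) and VWF (-0.65, limma adjusted p = 0.164). No luminal or fibroblast marker did. Array medians ranged over 27.38 to 27.95 in shRB and 26.65 to 28.06 in shControl, and the number of arrays limits the precision.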

How the data were processed

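Values deposited by the authors are single-colour array intensities on a linear scale, 1 per probe set. How they were background-corrected and normalized, with which software and build, is not given in the sources used here. The table holds 44607 probe sets, of which 15835 name 1 gene in the platform annotation and 28772 are unnamed. All 15835 symbols were matched by Entrez identifier to RefSeq (GRCh38.p14). Of the probe sets of a gene, that with the highest mean log2 intensity was kept, which left 14812 genes, with no filter on dim ones. The members and gene lists were chosen with earlier results of these data known.

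Intensities were log2-transformed and shRB was compared with shControl by limma 3.58.1 in R 4.3.3 (lmFit, eBayes, 2 groups, no covariates, two-sided), adjusted over all genes by Benjamini-Hochberg at 0.05. The lowest deposited value of every array was 16, and folds with the constant taken off are ratios of group means after subtraction of 16. Described array by array were members past the threshold or with an unadjusted p under 0.05, and the 3 of smallest p in each family. From each list, genes that passed were named, or else the 3 of smallest p; members outside this rule are given by their differences, and DUSP1, DUSP4 and CISH were named after their values were seen. GC and TATA boxes were added to the motif search after the other counts were known. In 10 simulations of 14812 genes with 200 changed, limma called 21.2% of genes changed by 0.5 (log2) and 99.3% of those changed by 1. On average 10.8 unchanged genes were called. The simulated noise was Gaussian, independent between genes and of the variances limma had estimated, without the floor. These shares may therefore overstate the power in the real arrays. Alternatives were quantile normalization, array medians, no dim genes, mean of probe sets, robust variances with an intensity trend, weighting of arrays, blocking on replicate number, subtraction of 16, every probe set on its own, a threshold of 0.1, and each array left out.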

Additional observations from a re-analysis of the deposited data

How the results depend on the processing

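Over all genes 159 passed, 103 higher and 56 lower in shRB. The count was 115 after quantile normalization (60 higher, 55 lower), 215 with array medians subtracted (121 higher, 94 lower), 385 with dim genes left out, 426 with an intensity trend and robust variances, 88 with array weights and 13 with 16 subtracted and 4 added (4 higher, 9 lower). A threshold of 0.1 gave 517, and leaving out an array gave 22 to 411. The members called numbered 3 as reported, 1 with array weights (SOCS3), 0 with 16 subtracted and 4 added, and 0 to 4 with an array left out. The fourth, DUSP21, also passed with the intensity trend. The median difference of the members was 0.046 as reported, against 0.024 over all genes. It was 0.015 with array medians subtracted and 0.029 after quantile normalization (over all genes -0.007 and -0.004). With dim genes left out, which kept 22 of the 34, it was 0.107, against 0.031 over all genes. With 16 subtracted and 4 added it was 0.088, against 0.046. With an array left out it was 0.039 to 0.083, against 0.015 to 0.041. RB1 passed with dim genes left out (log2 difference -0.54, adjusted p = 0.0489) and stood at -0.60 to -0.49 with an array left out. Replicate numbers are shared between the groups, but same-numbered arrays did not deviate together (correlations of -0.02 and 0.05 over genes). With the number as a block 24 genes and 0 members passed. Only shRB has a replicate 3, so the block fit gave the same log2 differences as leaving that array out (1.013 for SOCS3 and 0.9278 for DUSP12 in both). Both fits are counted among the alternatives. Of 430 member values under alternatives, 386 kept direction and side of the threshold, 20 no longer passed, 2 newly passed and 22 turned direction, in 14 members none of which had passed. DUSP10 turned to -0.0182 after quantile normalization and to -0.0106 with array medians subtracted, where DUSP18 (-0.000261) and SOCS2 (-0.00358) also turned. CUL2 turned to 0.0111 with array weights and 0.0426 with the block, where STYXL2 came to 2.25e-05. With an array left out the ranges were -0.34 to 0.23 for DUSP1, -0.38 to 0.50 for DUSP4, -0.39 to 0.0077 for DUSP6, -0.17 to 0.38 for DUSP7 and -0.11 to 0.15 for DUSP10. They were -0.10 to 0.52 for DUSP13A, -0.67 to 0.12 for DUSP15, -0.10 to 0.17 for DUSP18, -0.094 to 0.50 for DUSP19, -0.13 to 0.64 for DUSP22 and -0.22 to 0.13 for DUSP26. SOCS1 ranged over -0.42 to 0.067, SOCS2 over -0.10 to 0.15 and SOCS4 over -0.34 to 0.26. Outside the members, CUL2 ranged over -0.19 to 0.15, STYXL1 over -0.26 to 0.16 and STYXL2 over -0.51 to 0.30. With 1 shControl array left, that array is assumed to vary like the others. The cause of these changes was not tested, and members near the floor are limited by signal over background.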

Other observations

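SOCS2-AS1, the antisense transcript of the SOCS2 locus, which the symbol rule leaves out, read 4.93, 4.87 and 4.97 in shRB, against 5.25 and 5.19 in shControl. All shRB arrays were lower, but the log2 difference of -0.30 did not pass (95% interval -0.61 to 0.02, limma adjusted p = 0.303).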
